A study of Mus musculus with 6 samples.

Results

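This report concerns 37 genes of the mouse lysosome, listed by name as hydrolases, cathepsins, lipid-handling proteins and membrane proteins, and their expression in splenic NK1.1+ cells. Of the 37 genes, 36 had a probe named for them on the Illumina mouse array, with 83 probes in all, and 33 of them, through 64 probes, were measured, which means that a probe reached the detection level of 6.9 on the log2 scale in at least 3 of the 6 mice. These 33 are among 9173 genes measured in the series, and each was read through its brightest kept probe. The groups were 3 wild-type C57BL/6 (B6) mice and 3 TLR7tg mice, a lupus model with transgenic Tlr7. Both groups gave splenic NK1.1+ cells by the design text, whereas the single labels of B6 mice name NK cells. Total RNA of each mouse gave 1 value per probe, an average of 2 technical arrays in replicate 1 of each group. The sources used here do not give the promoter of the transgene, the age of the mice or the way of isolating the cells. One title among the TLR7tg mice, that of replicate 1, holds a B6 mouse's identifier, against its other labels. Tlr7 was higher in all 3 mice labelled TLR7tg than in any B6 mouse (13.80 ± 0.71 against 9.13 ± 0.57, SD, n = 3 each).

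Lysosomes are acidic compartments in which proteases, glycosidases, lipases and phosphatases break down material brought in by endocytosis, phagocytosis and autophagy. The hydrolases reach them by sorting receptors, a proton pump keeps the lumen acid, and heavily glycosylated membrane proteins line the inner face. Natural killer (NK) cells keep their killing proteins in secretory lysosomes, and phagocytes hold large numbers of degradative ones. The endosomal Toll-like receptors, Tlr7 among them, are cut by lysosomal proteases before they signal. The transcription factors of the TFEB family bind an E-box in the promoters of many lysosomal genes.

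The E-box letters CACGTG were searched in the RefSeq promoter windows of assembly GRCm38.p6, which run from 250 bases before to 50 bases after a gene's start. These letters read the same on both strands, and the longer form TCACGTGA contains them. Of the 33 listed genes with a window, 11 held CACGTG and 6 held TCACGTGA. Over all genes with a window these shares were 8.09% and 1.12%, and over all 32851 windows 7.15% and 0.974%. The windows of Ctsa and Ifi30, which were higher in TLR7tg, are shown beside those of Lamp1 and Ctsd, which did not pass the test, with each CACGTG in capitals and the rest in lower case, 5′ to 3′ along the gene's strand. They lie at chr2:164833523-164833822 (plus strand, Ctsa), chr8:70766614-70766913 (minus strand, Ifi30), chr8:13158911-13159210 (plus strand, Lamp1) and chr7:142387778-142388077 (minus strand, Ctsd).
Ctsa: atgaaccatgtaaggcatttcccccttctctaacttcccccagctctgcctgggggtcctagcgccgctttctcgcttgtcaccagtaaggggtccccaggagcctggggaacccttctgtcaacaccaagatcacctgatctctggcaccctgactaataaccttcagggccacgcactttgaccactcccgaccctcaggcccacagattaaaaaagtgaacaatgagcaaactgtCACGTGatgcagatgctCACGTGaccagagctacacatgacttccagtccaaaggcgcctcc
Ifi30: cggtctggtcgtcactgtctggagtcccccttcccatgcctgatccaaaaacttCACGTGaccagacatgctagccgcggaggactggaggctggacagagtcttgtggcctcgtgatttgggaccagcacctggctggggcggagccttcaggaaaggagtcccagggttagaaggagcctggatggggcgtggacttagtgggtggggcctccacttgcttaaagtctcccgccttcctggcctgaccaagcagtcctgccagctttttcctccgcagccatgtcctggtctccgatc
Lamp1: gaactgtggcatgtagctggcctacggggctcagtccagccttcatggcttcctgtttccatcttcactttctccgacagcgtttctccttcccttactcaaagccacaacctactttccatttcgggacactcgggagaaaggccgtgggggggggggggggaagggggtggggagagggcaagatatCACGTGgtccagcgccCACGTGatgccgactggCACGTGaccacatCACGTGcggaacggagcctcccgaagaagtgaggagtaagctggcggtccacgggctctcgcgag
Ctsd: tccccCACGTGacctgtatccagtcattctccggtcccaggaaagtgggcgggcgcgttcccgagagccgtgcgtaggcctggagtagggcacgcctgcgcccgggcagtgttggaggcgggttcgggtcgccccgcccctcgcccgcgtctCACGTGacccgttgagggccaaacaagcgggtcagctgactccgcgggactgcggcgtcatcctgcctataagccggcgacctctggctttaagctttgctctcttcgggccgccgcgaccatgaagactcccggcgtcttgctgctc
Ctsa has 2 copies, of which the first begins 12 bases before the start, Ifi30 has 1, Lamp1 has 4 and Ctsd has 2. Among genes higher in TLR7tg with a window, 3 of 13 held CACGTG (Ctsa, Lgmn and Ifi30), and among measured genes that did not pass, 5 of 16 did (Ctsd, Glb1, Gaa, Lamp1 and Cln3). A match of letters is a description of these windows and not of binding.

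In TLR7tg cells 14 of the 33 measured lysosomal genes were higher, 1 was lower and 18 did not pass the test (limma, adjusted p under 0.05 over all kept probes). Over all 9173 genes 7.74% were higher and 6.97% lower by the same test, while 42.4% of the lysosomal genes were higher and 3.03% lower. The 14 were Ctsa, Ctsh, Ctsz, Ctss, Lgmn, Gusb, Hexa, Lipa, Ppt1, Psap, Lamp2, Grn, Ifi30 and Acp2, and the gene that fell was Npc1. The median difference (TLR7tg minus B6, log2) was 0.83 over the lysosomal genes and -0.06 over all genes. In 19 of the 33 genes every TLR7tg mouse lay above every B6 mouse, and in 1 gene every TLR7tg mouse lay below, against 14.1% and 18.5% of all genes. By class the median difference was 1.46 over the 4 other luminal proteins, 1.12 over the 10 proteases, 0.92 over the 5 lipid-handling proteins, 0.50 over the 6 membrane proteins and 0.33 over the 8 glycosidases. Leaving out B6 replicate 2 left 6 genes that rose and leaving out B6 replicate 1 left 9, while 8 of 36 rose when dim probes were not filtered. Over all genes the numbers that rose in these settings were 421, 506 and, of 19057 unfiltered, 459, against 710 in the main fit. Differences and folds hold on the deposited scale. Without that filter the calls of Ctsz, Ctss, Lgmn, Psap, Lamp2 and Ifi30 ended, with normexp background correction those of Lgmn, Hexa, Psap and Npc1, with a trended and robust fit those of Lgmn, Psap and Npc1, and with probes averaged per gene those of Gusb and Npc1. With a block for the replicate 1 mice, or for neighbouring mouse identifiers, 20 genes rose, the added ones being Ctsb, Ctsc, Man2b1, Npc2, Lamp1 and Cd63. Over all genes 1022 and 1118 rose with these blocks, so more calls were not particular to the lysosomal genes. Ctsa, Ctsh, Lipa, Ppt1, Grn and Acp2 passed in all 16 alternatives run.

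**Figure D1:**
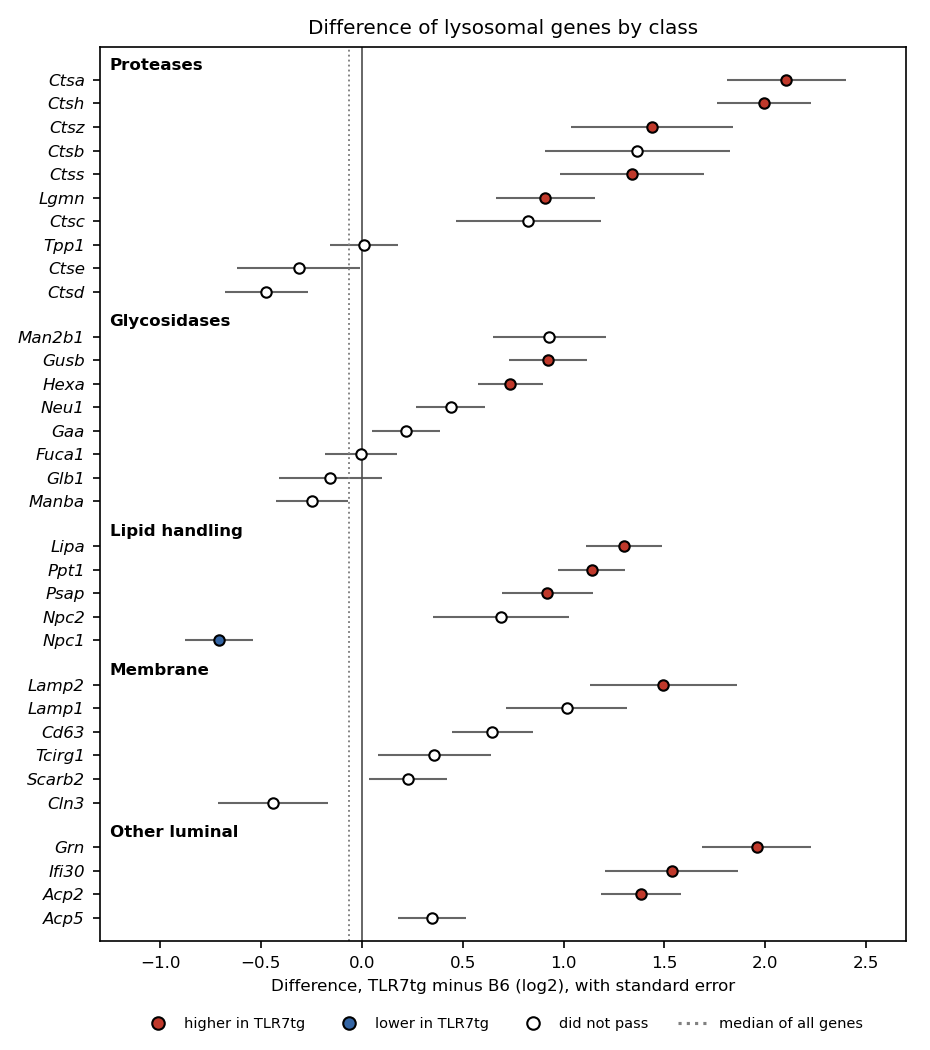
Difference between TLR7tg and B6 (log2, horizontal axis) of the 33 measured lysosomal genes, grouped by class, with the limma standard error as bars and the median of all genes as a dotted line. Filled points passed the test. Of these, 14 lie to the right and Npc1 alone to the left, and differences of proteases run from -0.47 to 2.10 while those of glycosidases end at 0.93.

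The cells carried markers of more than 1 cell type, and in bulk RNA fewer cells of a type and less RNA per cell cannot be told apart. All 8 measured NK markers fell, and Klrb1c, the gene of NK1.1, fell by 2.17 (SE 0.32, adjusted p = 0.00258). Ncr1 and Eomes, 2 of these NK markers, stayed under the detection level in every TLR7tg mouse. Both were kept through the B6 mice alone and were at least 1.48-fold (Ncr1) and 5.36-fold (Eomes) lower in TLR7tg. Summed on the linear scale, the 8 NK markers lay between 53237 and 57434 in B6 and between 2120 and 7500 in TLR7tg. Of 10 measured neutrophil markers 9 rose, with sums from 1224 to 1960 in B6 and from 5743 to 87312 in TLR7tg, and S100a8 rose by 5.07 (SE 0.84, adjusted p = 0.00458, or 0.0529 with dim probes kept in). Of the measured neutrophil markers, all but Csf3r and Mmp9 reached the detection level in only 1 or 2 of the 3 B6 mice. The rest, S100a8 among them, passed the filter only with the TLR7tg mice, so the count of 9 is not independent of the filter. Undetected probes keep background signal, so the low sums of neutrophil markers in B6 and of dendritic cell markers in both groups hold a background part, whose size was not measured. In B6 replicate 1 all 10 neutrophil markers reached the detection level. Of 10 measured monocyte markers 7 rose, with sums from 10066 to 20949 in B6 and from 61427 to 70224 in TLR7tg. The other 3, Cx3cr1 (0.96), Ccr2 (0.19) and Itgam (-0.05), did not pass, and their groups overlapped. Csf1r, a receptor of monocytes and macrophages, rose by 2.20 (SE 0.44, adjusted p = 0.0116), a call that ended without TLR7tg replicate 2 (0.0516, and from 0.00182 to 0.0858 over its alternatives). Of 8 red pulp macrophage markers 3 fell and 5 did not pass, with values above 0 in these 5 (0.47 to 1.51) and a median of 0.49 over the 8, all 3 measured T cell markers fell, and 0 of 3 dendritic cell and 0 of 3 B cell markers passed by limma (0 also at an unadjusted p under 0.05). Sums of red pulp macrophage markers ranged from 6295 to 15820 in B6 and from 6337 to 17156 in TLR7tg, and those of T cell markers from 2485 to 3147 and from 670 to 883. Sums of dendritic cell markers ranged from 407 to 425 in B6 and from 414 to 506 in TLR7tg, and those of B cell markers from 1554 to 2982 and from 1793 to 3902. The part of these markers in the lysosomal differences was not tested.

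Among the proteases, 5 of 10 measured members rose, 0 fell by limma (1 of those lower in TLR7tg had an unadjusted p under 0.05, Ctsd) and 5 did not pass. Ctsa encodes cathepsin A, a carboxypeptidase that also protects beta-galactosidase and neuraminidase in a complex. Its signal was 8.10, 8.41 and 8.83 in the B6 mice and 11.14, 10.43 and 10.08 in the TLR7tg mice. The groups lay well apart at this brightest probe, where Ctsa rose by 2.10 (SE 0.29, adjusted p = 0.00202), equal to 4.30-fold. Of its 5 kept probes another rose by 1.34 (0.00744), and 3 did not pass, with differences of 0.24, 0.26 and 0.42. Averaged over its probes the gene rose by 0.87 (0.0117). Ctsh, an aminopeptidase of the cysteine cathepsin family, was 9.62, 9.85 and 9.95 in B6 and 12.25, 11.72 and 11.42 in TLR7tg. It rose by 1.99 (SE 0.23, adjusted p = 0.000959), and its second kept probe rose as well (adjusted p = 0.00272). At the brightest probe of both genes the highest mouse was TLR7tg replicate 1, and the difference between the replicate 1 mice (3.04 and 2.63) was larger than that among the other 4 mice (1.64 and 1.67).

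Ctsz, which encodes the carboxypeptidase cathepsin Z, was 8.62, 9.26 and 9.16 in B6 and 10.13, 9.77 and 11.47 in TLR7tg. Ctss, which encodes the endopeptidase that trims the invariant chain of MHC class II molecules, was 7.28, 8.21 and 8.58 in B6 and 8.99, 9.16 and 9.93 in TLR7tg. Lgmn, the asparagine-specific endopeptidase legumain, was 9.78, 10.40 and 10.39 in B6 and 11.36, 11.23 and 10.71 in TLR7tg. The groups of these 3 genes did not overlap, but the gap between the nearest mice was narrower than the range within each group. Ctsz rose by 1.44 (SE 0.40, adjusted p = 0.0458), Ctss rose by 1.34 (SE 0.36, adjusted p = 0.0393) and Lgmn rose by 0.91 (SE 0.25, adjusted p = 0.0409). The call of Ctss ended when B6 replicate 1 or 2 or TLR7tg replicate 2 or 3 was left out (adjusted p = 0.0801, 0.0953, 0.0880 and 0.109, and from 0.00140 to 0.179 over all alternatives). That of Ctsz ended without B6 replicate 1, 2 or 3 or TLR7tg replicate 3 (0.113, 0.100, 0.0921 and 0.0546, and from 0.0108 to 0.210 over all), although its second probe rose by 1.42 (adjusted p = 0.00779). That of Lgmn ended without any mouse other than TLR7tg replicate 3 (0.114, 0.0825 and 0.0682 without B6 replicates 1, 2 and 3, and 0.0828 and 0.127 without TLR7tg replicates 1 and 2, from 0.0250 to 0.168 over all). Leaving out B6 replicate 1 or 2 left 2 proteases that rose, and leaving out B6 replicate 3 or TLR7tg replicate 2 or 3 left 3.

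Ctsb and Ctsc did not pass at their brightest probe. Ctsb, the abundant cysteine protease cathepsin B, was 11.04, 12.21 and 12.64 in B6 and 12.48, 13.94 and 13.56 in TLR7tg, a difference of 1.36 (SE 0.46, adjusted p = 0.0906). Ctsc, the dipeptidyl peptidase that activates granzymes and neutrophil serine proteases, differed by 0.83 (adjusted p = 0.191), with 11.73 in TLR7tg replicate 1 inside the B6 range of 11.48 to 11.96. Its other 2 kept probes rose by 1.06 and 0.96 (adjusted p = 0.0221 and 0.0225), and it was the only member called at another probe alone. Both genes passed when TLR7tg replicate 1 was left out (0.0137 for Ctsb and 0.00872 for Ctsc, with ranges over all alternatives from 0.00108 to 0.346 and from 0.00872 to 0.516).

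The aspartic proteases and Tpp1 did not pass. Ctsd, cathepsin D, was 7.31, 7.61 and 7.92 in B6 and 7.02, 7.06 and 7.33 in TLR7tg (-0.47, adjusted p = 0.188). Ctse, cathepsin E, differed by -0.31 (adjusted p = 0.616), with 10.09 in TLR7tg replicate 3 and values from 11.02 to 11.34 in the other 5 mice. Tpp1, a tripeptidyl peptidase, had means of 8.20 ± 0.17 and 8.21 ± 0.03 (SD, n = 3 each). Ctsl, cathepsin L, stayed between 6.49 and 6.72 in all 6 mice, below the detection level, and no difference is given.

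**Figure D2:**
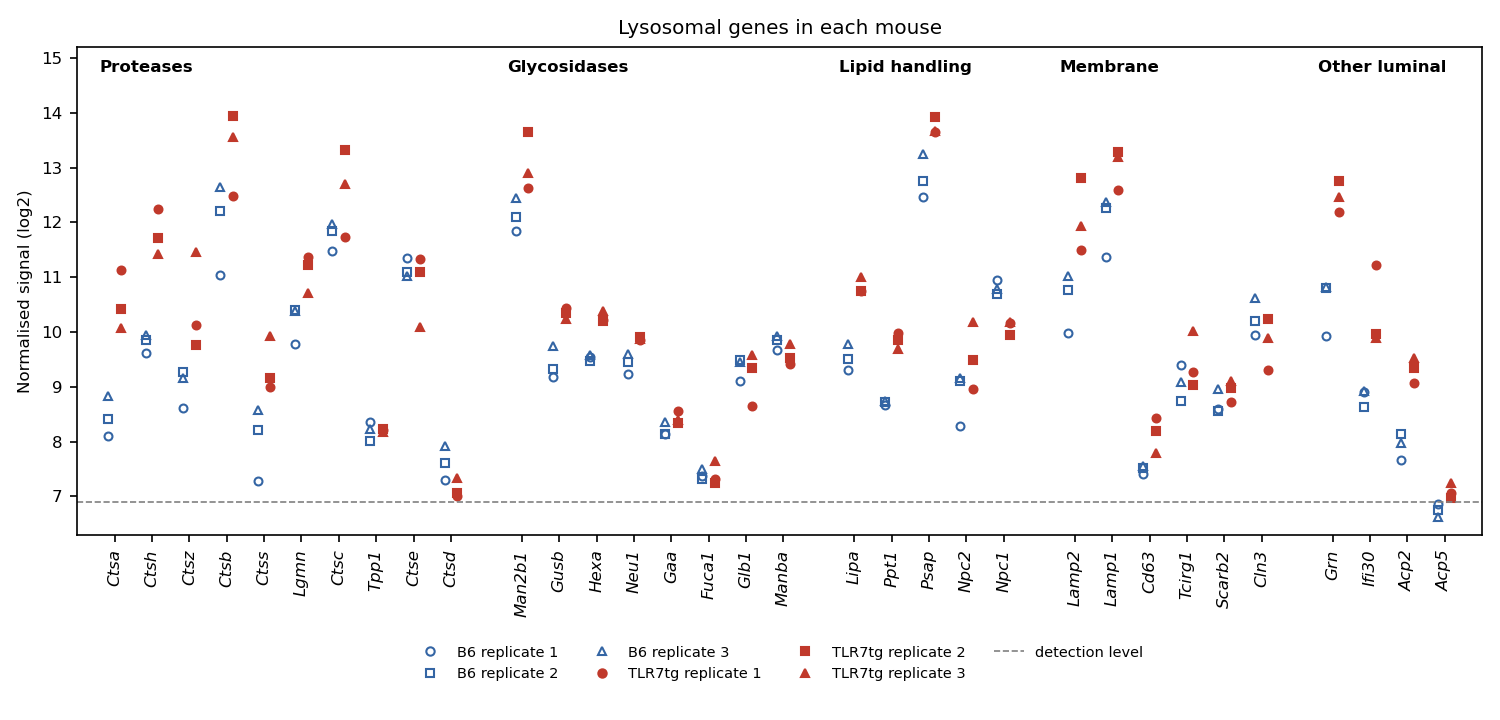
Normalised signal (log2, vertical axis) of the 33 measured lysosomal genes in each of the 6 mice, with open blue symbols for B6, filled red symbols for TLR7tg, a symbol shape per replicate and the detection level of 6.9 as a dashed line. In 19 genes all red symbols lie above all blue ones, among them Ctsa, Ctsh, Lipa and Grn, and in Npc1 they lie below.

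Of 8 measured glycosidases 2 rose, 0 fell by limma (0 of those lower in TLR7tg had an unadjusted p under 0.05) and 6 did not pass. Gusb encodes beta-glucuronidase, which splits glucuronic acid from glycosaminoglycans, and was 9.19, 9.33 and 9.74 in B6 and 10.43, 10.35 and 10.24 in TLR7tg. It rose by 0.92 (SE 0.19, adjusted p = 0.0142). Of its 4 kept probes 2 rose, and the others differed by 0.76 (adjusted p = 0.0633) and -0.10 (0.893). Hexa, the alpha chain of beta-hexosaminidase, was 9.54, 9.47 and 9.57 in B6 and 10.21, 10.20 and 10.38 in TLR7tg. Its groups were tight and apart, and it rose by 0.74 (SE 0.16, adjusted p = 0.0169). Without B6 replicate 2 both calls ended (adjusted p = 0.0706 and 0.0822), and that of Hexa also ended without B6 replicate 3 or TLR7tg replicate 3 (0.0558 and 0.0545). The range over all alternatives was 0.00703 to 0.0706 for Gusb and 0.00689 to 0.0822 for Hexa.

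Man2b1, the lysosomal alpha-mannosidase, differed by 0.93 (adjusted p = 0.0621) and its groups did not overlap, with 11.85 to 12.45 in B6 and 12.63 to 13.65 in TLR7tg. It passed when TLR7tg replicate 1 was left out (0.0206, with a range from 0.0164 to 0.207 over all alternatives). The second kept probe of Man2b1 differed by 1.08 (adjusted p = 0.0751), and there the groups overlapped. Neu1, the sialidase that forms a complex with cathepsin A, differed by 0.44 (adjusted p = 0.139), without overlap. Gaa (0.22), which degrades glycogen, Fuca1 (0.00), a fucosidase, Glb1 (-0.16), the beta-galactosidase, and Manba (-0.25), the beta-mannosidase, had adjusted p of 0.461 or more. Neu1 and Glb1, the partners of Ctsa in the complex, thus did not pass, and a difference between these genes was not tested. Both glycosidases that rose were lost without B6 replicate 2, and 1 was left without B6 replicate 3 or TLR7tg replicate 3. Gla, the alpha-galactosidase, was below the detection level in all 6 mice.

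Of the 5 lipid-handling genes 3 rose, 1 fell and 1 did not pass. Lipa encodes the acid lipase of cholesteryl esters and triglycerides and was 9.31, 9.50 and 9.78 in B6 and 10.74, 10.75 and 11.00 in TLR7tg. It rose by 1.30 (SE 0.19, adjusted p = 0.00243), and its second probe rose by 1.36. Ppt1, the thioesterase that strips palmitate from proteins, was 8.66, 8.73 and 8.74 in B6 and 9.98, 9.86 and 9.70 in TLR7tg. The B6 mice lay within 0.1 of each other, and the gene rose by 1.14 (SE 0.17, adjusted p = 0.00245). Psap, the precursor of the saposins that present sphingolipids to their hydrolases, was 12.47, 12.75 and 13.25 in B6 and 13.65, 13.92 and 13.66 in TLR7tg. It rose by 0.92 (SE 0.22, adjusted p = 0.0268) and by 1.30 at its second probe (adjusted p = 0.00604). The call at the brightest probe ended when B6 replicate 1 or 2 or TLR7tg replicate 2 or 3 was left out (0.0799, 0.106, 0.0931 and 0.0550, and from 0.00860 to 0.106 over all alternatives).

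Npc1, the membrane protein that passes cholesterol out of the lysosome, was 10.94, 10.70 and 10.78 in B6 and 10.16, 9.95 and 10.19 in TLR7tg. It fell by 0.71 (SE 0.17, adjusted p = 0.0250), while its other kept probes differed by -0.37 (0.347) and -0.05 (0.944). The call ended without any single mouse other than TLR7tg replicate 1 or 3 (adjusted p = 0.0860, 0.0717 and 0.0794 without B6 replicates 1, 2 and 3 and 0.0747 without TLR7tg replicate 2, from 0.00892 to 0.175 over all alternatives). Npc2, the luminal protein that hands cholesterol to Npc1, was 8.29, 9.11 and 9.15 in B6 and 8.97, 9.48 and 10.18 in TLR7tg, and its difference of 0.69 did not pass (adjusted p = 0.246). It passed with either block, and its adjusted p ranged from 0.0206 with the identifier block to 0.590 over all alternatives.

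Of 6 measured membrane proteins 1 rose, 0 fell by limma (0 of those lower in TLR7tg had an unadjusted p under 0.05) and 5 did not pass. Lamp2, a main glycoprotein of the lysosomal membrane that also serves chaperone-mediated autophagy, was 9.99, 10.77 and 11.02 in B6 and 11.50, 12.81 and 11.94 in TLR7tg. It rose by 1.49 (SE 0.36, adjusted p = 0.0264), and another 3 probes rose by 1.18 to 1.38. Its remaining kept probe was below the detection level in all B6 mice and kept through the TLR7tg mice alone, at least 1.37-fold higher there (adjusted p = 0.0318). The call of Lamp2 at its brightest probe ended when B6 replicate 1 or 2 or TLR7tg replicate 2 or 3 was left out (0.0634, 0.0731, 0.0784 and 0.0520, and from 0.00202 to 0.137 over all alternatives). Lamp1, its relative that appears on the surface of degranulating NK cells, was 11.37, 12.27 and 12.38 in B6 and 12.59, 13.28 and 13.19 in TLR7tg. These groups did not overlap either, and its difference of 1.02 missed the threshold (SE 0.30, adjusted p = 0.0575). Without TLR7tg replicate 1 it passed (0.0208, and from 0.00168 to 0.208 over all alternatives).

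Cd63, a tetraspanin of late endosomes, was 7.40, 7.52 and 7.55 in B6 and 8.43, 8.19 and 7.80 in TLR7tg (0.65, adjusted p = 0.0681), and it passed without TLR7tg replicate 3 (0.0339, and from 0.0339 to 0.251 over all alternatives). Tcirg1, a subunit of the proton pump, differed by 0.36 (0.506), and all 4 of its kept probes gave differences between 0.15 and 0.36. Scarb2, the receptor that carries glucocerebrosidase to lysosomes, differed by 0.23 (0.542), and Cln3, a membrane protein mutated in juvenile Batten disease, by -0.44 (0.377). Mcoln1, a calcium channel of the lysosomal membrane, reached the detection level in the replicate 1 mice alone (7.30 in B6 and 7.36 in TLR7tg) and was not tested. Cd68 had no probe under that name.

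Of the other 4 luminal proteins 3 rose and 1 did not pass. Grn encodes progranulin, a lysosomal glycoprotein that is cut into granulins, and was 9.93, 10.79 and 10.81 in B6 and 12.19, 12.75 and 12.47 in TLR7tg. It rose by 1.96 (SE 0.27, adjusted p = 0.00197), equal to 3.88-fold. Ifi30, the thiol reductase induced by interferon gamma that opens disulfide bonds of antigens, was 8.91, 8.63 and 8.93 in B6 and 11.21, 9.97 and 9.90 in TLR7tg. It rose by 1.54 (SE 0.33, adjusted p = 0.0157) and by 1.56 at its second probe (0.00196). The TLR7tg replicate 1 mouse stood above the other 2 of its group at the brightest probe, and the call ended without B6 replicate 2 (0.0723, and from 0.00247 to 0.0886 over all alternatives). Acp5, the tartrate-resistant phosphatase, was below the detection level in all B6 mice and at 6.97 to 7.25 in TLR7tg, at least 1.14-fold higher, and did not pass (adjusted p = 0.249). It was kept through the TLR7tg mice alone and is 1 of the 19 genes without overlap.

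Acp2, the lysosomal acid phosphatase, had 4 kept probes that went in opposite directions. The brightest was 7.67, 8.14 and 7.97 in B6 and 9.07, 9.34 and 9.52 in TLR7tg and rose by 1.38 (SE 0.20, adjusted p = 0.00234). Another 2 probes rose by 1.58 (SE 0.16, adjusted p = 0.000547) and 1.36 (SE 0.17, adjusted p = 0.00131). The remaining probe, ILMN_2735575, was 8.08, 8.32 and 8.35 in B6 and 7.10, 7.33 and 7.27 in TLR7tg and fell by 1.01 (SE 0.17, adjusted p = 0.00500). The groups were apart at all 4 probes, and the platform annotation gives all 4 the same transcript. Averaged over the 4 probes Acp2 rose by 0.83 (adjusted p = 0.00822). Acp2 was the only one of the 33 genes with calls in both directions. In 13 of the 16 genes with 2 or more kept probes all differences had the same sign, and in the other 3, Acp2, Ctse and Gusb, they did not.

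**Figure D3:**
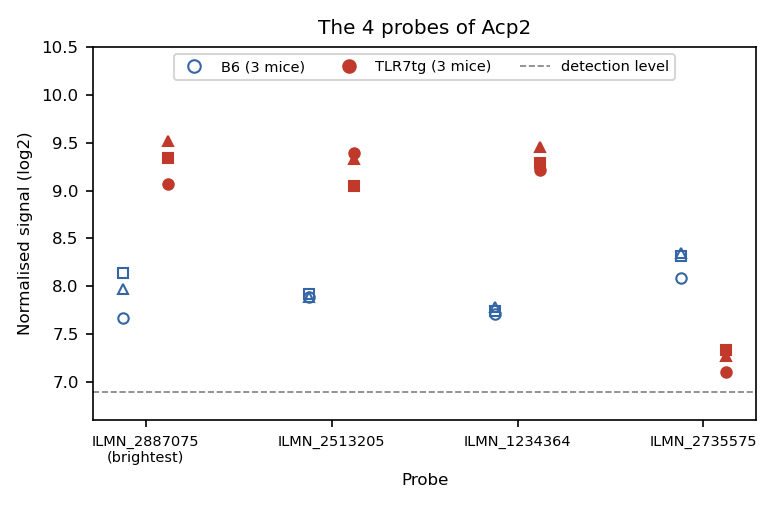
Normalised signal (log2, vertical axis) of the 4 kept probes of Acp2 in the 3 B6 mice (open blue) and the 3 TLR7tg mice (filled red), with circles, squares and triangles for replicates 1, 2 and 3 and the detection level dashed. At 3 probes the TLR7tg mice lie above the B6 mice, with differences of 1.36 to 1.58, and at ILMN_2735575 they lie below by 1.01.

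The lysosomal genes shared a pattern among the B6 mice. In B6, replicate 1 had the lowest value in 24 of 33 genes (72.7%, against 44.5% of all genes), and replicate 3 had the highest in 24 (72.7%, against 37.7% of all genes). Of the 14 genes that rose, 12 were lowest in B6 replicate 1. Ctsb (11.04 against 12.21 and 12.64), Ctss (7.28 against 8.21 and 8.58), Lamp1 (11.37 against 12.27 and 12.38) and Grn (9.93 against 10.79 and 10.81) showed the largest such gaps. Csf1r was likewise 9.19 in B6 replicate 1 and 10.84 and 11.22 in the others, and the summed monocyte markers were 10066, 16405 and 20949 in the B6 mice. NK marker sums differed less, at 57434, 54613 and 53237. The part of these markers in the order of the mice was not tested.

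In TLR7tg no mouse was highest throughout. Of the 33 genes, 27.3%, 30.3% and 42.4% were highest in replicates 1, 2 and 3, against 30.7%, 34.2% and 35.1% of all genes. Replicate 1 was lowest in 17 of the 33 (51.5%, against 40.1% of all genes). Of the 14 genes that rose, 6 were highest in replicate 1, 3 in replicate 2 and 5 in replicate 3. Ctsa, Ctsh and Ifi30 peaked in replicate 1, Ctsb, Ctsc, Man2b1 and Lamp2 in replicate 2, and Ctsz, Ctss and Npc2 in replicate 3. Replicate 3 had the lowest summed neutrophil markers of its group (5743, against 45666 and 87312) and the highest summed red pulp macrophage markers (17156, against 6337 and 6681). C1qb was the brightest marker in the latter sum (13.37 in replicate 3, against 11.23 and 11.30 in replicates 1 and 2). Vcam1, Slc40a1 and Mertk of the same list fell in TLR7tg by 2.23, 2.10 and 1.31, and its other 5 measured markers did not pass. The mean log2 level of the measured proteases was 10.46, 10.60 and 10.55 in the 3 TLR7tg mice and 9.29, 9.69 and 9.87 in the B6 mice. Their summed linear levels were 23506, 37261 and 29615 in TLR7tg and 10521, 14600 and 16733 in B6, without overlap. The part of the marker sums in these levels was not tested. The median SD between mice over the lysosomal genes was 0.24 in B6 and 0.32 in TLR7tg, and over all genes 0.21 and 0.26.

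**Figure D4:**
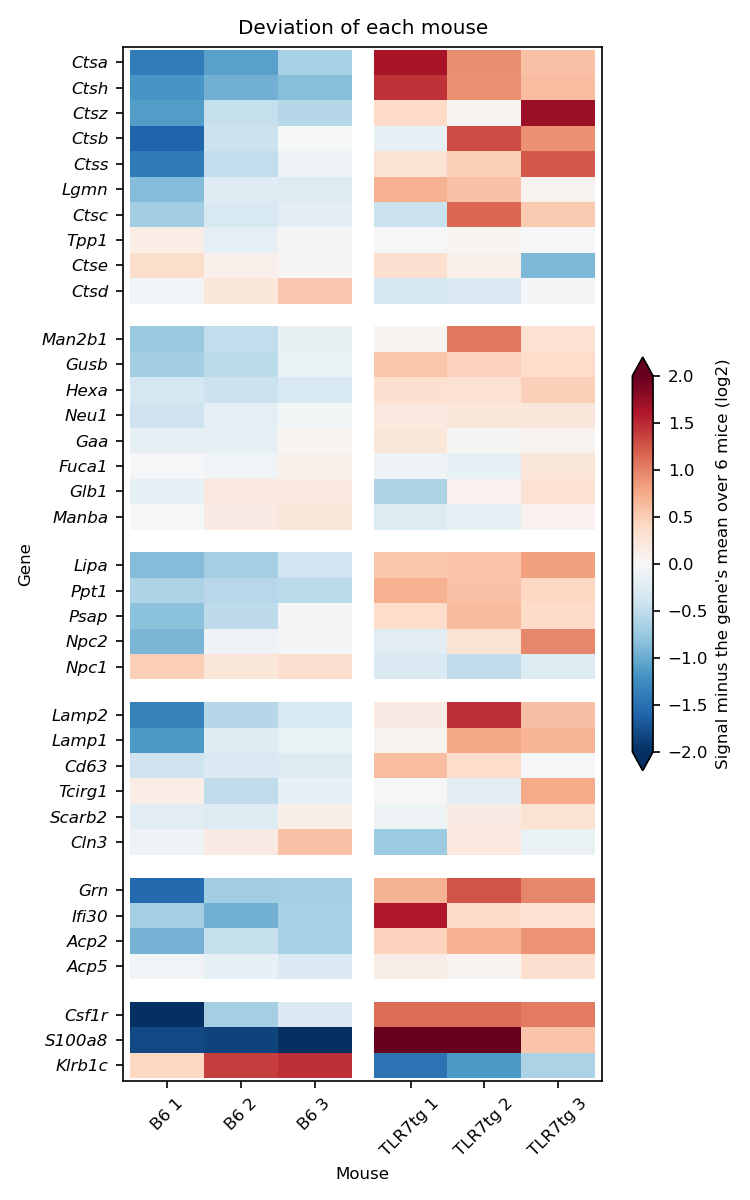
Signal of each mouse minus the gene's mean over the 6 mice (log2, colour scale ending at -2 and 2) for the 33 lysosomal genes by class and, below them, for Csf1r, S100a8 and Klrb1c. B6 replicate 1 is the lowest B6 mouse in 24 of the 33 genes, and the highest TLR7tg mouse differs from gene to gene.

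The scanner signals of the 4 technical arrays gave the technical spread within the replicate 1 mice, whose deposited values are averages of these same arrays. After quantile normalisation of their log2 signals, arrays of the same mouse differed by a median of 0.08 over the 33 genes in both groups and by at most 0.31 in B6 and 0.30 in TLR7tg. The median difference between these mice was 0.89 on the scanner scale and 0.78 on the deposited scale. Ctss (2.72 against 1.71) and Cd63 (1.73 against 1.03) differed more on the scanner scale.

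Other genes of the lysosome moved in both directions. Of 105 such genes listed by function, 80 were measured, of which 12 rose, 7 fell and 61 did not pass. Their median difference was 0.11. In this set 15% rose and 8.75% fell, against 7.74% and 6.97% of all genes. Leaving out B6 replicate 2 left 7 that rose, while over all genes it left 421, against 710 in the main fit. By function, 3 of 20 other hydrolases rose and 3 fell, 2 of 14 subunits of the proton-pumping V-ATPase rose, 5 of 24 other membrane proteins rose and 1 fell, 1 of 17 sorting factors and regulators rose and 2 fell, and 1 of 5 protease inhibitors rose and 1 fell.

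At the brightest probes the largest rises were those of Slc11a1 (2.47, SE 0.39, adjusted p = 0.00367), the metal transporter of phagosomes, Sort1 (2.38, SE 0.49), the sorting receptor sortilin, and Pld4 (2.33, SE 0.23), an exonuclease that degrades nucleic acids in endolysosomes. Slc15a3 (2.30, SE 0.29), a peptide and histidine transporter of endolysosomes, and Gm2a (1.55, SE 0.31), a cofactor of ganglioside breakdown, also rose. With probes averaged per gene the order differed, since Sort1 then rose by 1.46 and Slc11a1 by 2.16, below Pld4 and Slc15a3. Pld4 was 9.36, 10.07 and 10.11 in B6 and 12.29, 11.97 and 12.29 in TLR7tg, with no overlap. The call of Sort1 (adjusted p = 0.0134) ended without TLR7tg replicate 2 (0.0658, and from 0.000519 to 0.0977 over its alternatives) and that of Gm2a (0.0108) without B6 replicate 2 (0.0552, and from 0.00584 to 0.0647). The other 7 that rose were chosen after their values were seen: Asah1 (1.44), the acid ceramidase, Cst3 (1.20), the secreted inhibitor cystatin C, Slc15a4 (1.16), a transporter on which endosomal Toll-like receptor responses depend, Atp6v0a1 (0.99) and Atp6v1b2 (0.83) of the V-ATPase, Cln6 (0.98) and Pip4p1 (0.64). Asah1, Atp6v1b2 and Pip4p1 passed narrowly (adjusted p = 0.04592, 0.04935 and 0.04315). Only 1 V-ATPase subunit rose without the filter on dim probes, with detection in all 6 mice, with a trended and robust fit or with normexp.

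The 2 largest falls among these genes exceeded every rise. Ctsw, a cathepsin known from NK cells and cytotoxic T cells, was 13.74, 14.02 and 14.30 in B6 and 8.78, 9.45 and 11.40 in TLR7tg, and fell by 4.14 (SE 0.55, adjusted p = 0.00174). Arsb, the arylsulfatase that degrades dermatan sulfate, was 12.44, 12.40 and 12.44 in B6 and 9.08, 9.60 and 9.42 in TLR7tg. The B6 mice were nearly equal, and Arsb fell by 3.06 (SE 0.18, adjusted p = 0.000108). Cst7, which encodes cystatin F, an inhibitor of cathepsin C in cytotoxic cells, was 10.20, 9.35 and 9.37 in B6 and 7.05, 6.96 and 7.67 in TLR7tg, and fell by 2.41 (SE 0.28, adjusted p = 0.000984). Pld3, a relative of Pld4 with a like exonuclease activity, fell by 1.64 (SE 0.31, adjusted p = 0.00917, or 0.0600 with dim probes kept in). Cathepsin W thus fell in the mice in which cathepsins A, H, Z and S rose.

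Gnptg, a subunit of the enzyme that makes the mannose phosphate tag of hydrolases, was 11.54, 11.69 and 11.94 in B6 and 9.66, 9.76 and 10.43 in TLR7tg, and fell by 1.77 (SE 0.24, adjusted p = 0.00170). Igf2r, the larger receptor of the tag, was 9.12, 9.36 and 9.85 in B6 and 7.83, 7.75 and 8.44 in TLR7tg, and fell by 1.44 (SE 0.26, adjusted p = 0.00643). M6pr, the smaller receptor, had means of 10.58 and 10.67 (adjusted p = 0.870), and Gnptab, another subunit of the enzyme, differed by -0.30 (0.450). Nagpa, which uncovers the tag, differed by 0.24 (0.483). Cd164, a sialomucin of endosomes and lysosomes, fell by 1.35 (adjusted p = 0.0115). Tfeb (0.10, adjusted p = 0.830) and its relative Tfe3 (0.53, 0.0842) did not pass. Igf2r, M6pr, Gnptab, Nagpa, Cd164, Tfeb and Tfe3 were chosen after their values were seen.

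**Figure D5:**
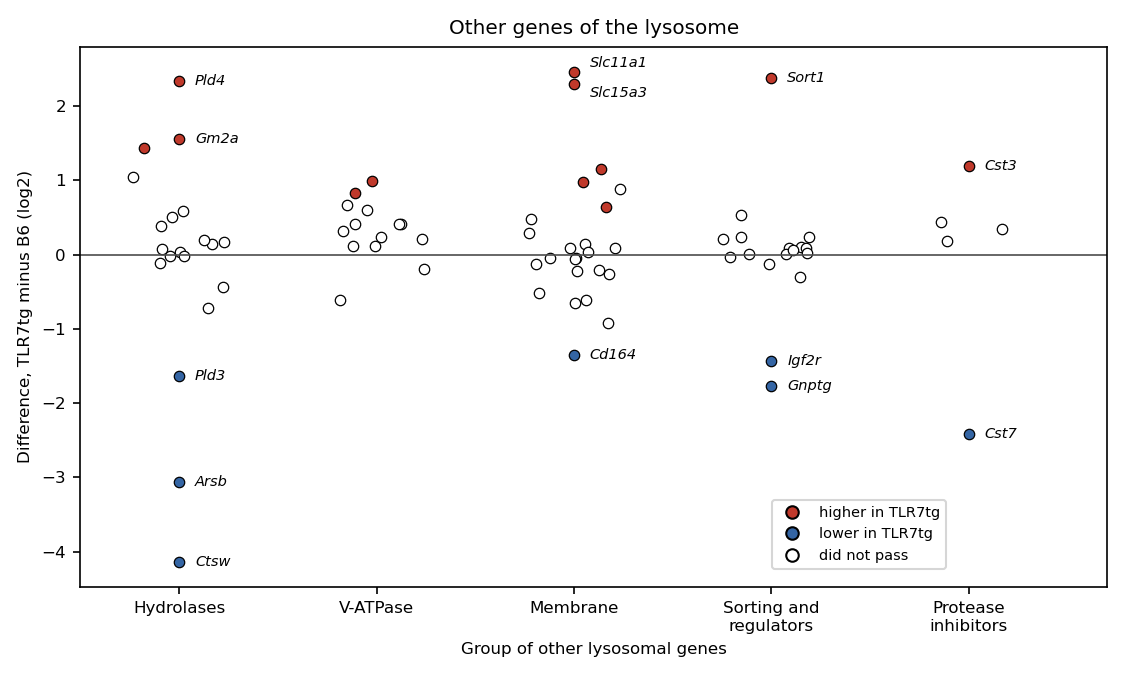
Difference between TLR7tg and B6 (log2, vertical axis) of the 80 measured other genes of the lysosome by functional group, with filled points for genes that passed the test and points spread sideways for legibility. Slc11a1, Sort1 and Pld4 lie above 2, while Ctsw, Arsb and Cst7 lie below -2.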

How the data were processed

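Log2 values of 45281 probes in 6 mice, 3 per group, were taken as the authors deposited them, and their tool and normalisation are not given in the sources used here; sorted columns nearly coincide, and the log2 base and scale were inferred from the replicate 1 mice. The deposited scanner table holds intensity columns and detection p-values (per the file headers), and labels of the replicate 1 mice name 4 of its arrays. The other 8 columns, intensities and detection p-values counted together, matched no mouse and were not used. The detection level of 6.9 is the lowest from which every bin of 0.1 held 95% or more detected probes (detection p-value under 0.05 on average) in each replicate 1 mouse. Probes at that level in at least 3 mice (16535) were tested by lmFit and eBayes of limma 3.58.1 (R 4.3.3), with Benjamini-Hochberg adjustment over all of them. Undetected probes keep values well above 0 on the deposited scale, so differences of dim genes are understated. A gene below the level in a whole group is given as "at least N-fold", against 6.9. Gene names came from the platform annotation, updated through RefSeq.

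Named are all 37 listed genes, the 5 largest rises and falls of other lysosomal genes that passed without overlap, Tlr7, Klrb1c, Csf1r and S100a8. Ncr1, Eomes, Csf3r, Mmp9, Cx3cr1, Ccr2, Itgam, C1qb, Vcam1, Slc40a1, Mertk and genes marked so in the text were chosen after their values were seen. The genes and lists were chosen with earlier results of these data known. Apart from the title of TLR7tg replicate 1, labels give each mouse its own identifier. Read that way, p-values measure the spread between mice, and the number of arrays limits precision. The fit was tested on simulated data. Alternatives were other filters, variance models, array weights, background correction, centring, probe averaging, blocks and leaving out mice.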

Additional observations from a re-analysis of the deposited data

How the results depend on the processing

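Of the 15 lysosomal genes that passed, 6 passed in all 16 alternatives and 9 did not in at least 1, while 6 others passed in at least 1, 12 passed in none, and 0 changed sign past the threshold. The number that rose was 14, 8 of 36 without a filter on dim probes, 20 with either block and 6 to 17 when a mouse was left out. The number that fell was 1, and 0 with a trended and robust fit, probes averaged per gene, normexp with offset 16 and the 4 other mice alone, and 0 to 1 when a mouse was left out. The median difference of the lipid-handling class was 0.92, 1.11 with probes averaged per gene and 0.74 to 1.13 when a mouse was left out. That of the other luminal class was 1.46, 1.19 with probes averaged, 1.68 with normexp and 1.31 to 1.55 when a mouse was left out. Of other lysosomal genes 12 rose and 7 fell, and 20 rose and 11 fell with neighbouring mouse identifiers as a block, 11 fell with a block for the replicate 1 mice, and 7 to 12 rose and 6 to 8 fell when a mouse was left out. Over all genes 710 of 9173 rose and 639 fell, while 459 of 19057 rose without a filter. With the identifier block 1118 rose and 1166 fell, and with the block for the replicate 1 mice 1022 rose and 1083 fell. When a mouse was left out, 421 to 756 rose and 341 to 629 fell. Centring on kept probes gave 714 and 634 and left 14 lysosomal genes higher. The labels give no shared replicate numbers, so the identifier block pairs mice by neighbouring identifiers only. With 3 mice per group and dim probes understated, a gene that did not pass is not shown to be unchanged.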
